A study of Mus musculus with 12 samples.

Results

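The genes described here are 10 genes of lipoprotein assembly in mouse liver: the apolipoprotein genes Apoa1, Apoa2, Apoa4, Apoa5, Apob, Apoc1, Apoc3, Apoe and Apom, and Mttp, which loads lipid onto apolipoprotein B. They were found by gene symbol among the probe sets of an Affymetrix Mouse430A array. All 10 were measured, by 16 of the 22626 probe sets, and they are 10 of the 12393 genes tested. Whole livers came from female C57BL/6 mice aged 8 to 12 weeks, with 3 arrays in each of 4 groups. The groups were mice with a deletion of Hdac6 (HDAC6 knockout), mice with a deletion of Hdac9 (HDAC9 knockout), wild-type mice on a high-fat diet given after weaning (60% of energy from fat), and wild-type mice on regular chow (25%). The labels give no diet for either knockout, no design of the deletions and no length of the high-fat diet, so diet may differ too wherever a knockout is set against wild type. The replicates are numbered, with nothing said of separate animals, so the spread behind each p-value is that of these samples and may be technical.

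Apolipoproteins are the protein coat of lipoproteins, the particles that carry triglyceride and cholesterol through the blood. The liver secretes very-low-density lipoprotein, which is built around apolipoprotein B, and makes the proteins of high-density lipoprotein (HDL). The exchangeable apolipoproteins move between these particles and set how fast enzymes strip their triglyceride and how fast receptors clear them.

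Values are log2 expression per probe set, on which a difference of 1 is a doubling. Where several probe sets measure a gene, the brightest on average over the 12 arrays stands for it. Groups were compared with limma over all genes, and a gene was called when its Benjamini-Hochberg adjusted p was under 0.05. Array medians lay between 5.78 and 5.86, and the number of arrays limits the precision. Hdac6 averaged 6.28 on the HDAC6 knockout arrays, against 7.91 on the chow arrays. Hdac9 read 4.04 to 4.40 in HDAC9 knockout livers and 4.18 to 4.39 in chow livers, close to a list of genes silent in liver (median 3.82), so it does not check that label. The hepatocyte marker list averaged between 13.27 and 13.44 on every array (8 of 10 markers measured, 0 called in any comparison).

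A pair of arrays stood apart. HDAC9 knockout replicate 2 carried transcripts of the exocrine pancreas: the mean of 9 measured pancreas genes (of 12 listed) was 8.70 there and at most 5.40 on the other 11 arrays. The 5.40 was that of HDAC9 knockout replicate 1, and the remaining arrays lay between 4.50 and 5.10. On replicate 1, Ctrb1 read 5.97 and Cela2a 5.24, against at most 4.98 and 4.35 on the remaining arrays. Cela1 (8.41) and Clps (4.46) were not raised there, with up to 10.41 and 4.54 on the remaining arrays. On chow replicate 2, probe sets of the same gene disagreed. Over 2155 genes with a second probe set, the difference between the 2 brightest probe sets, centred on its mean over the arrays, had an SD of 0.368 on chow replicate 2 and between 0.106 and 0.161 on the other 11. That array is in every chow comparison below.

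Apoa4 stood out among the 10. Apoa4 encodes apolipoprotein A-IV, a lipid-binding protein of intestine and liver that is carried on chylomicrons and HDL and is known to rise in fatty liver of mice. It lies with Apoa1, Apoc3 and Apoa5 in 1 cluster on mouse chromosome 9. The 250 bases before the start sites of Apoa4, Apoa1 and Apoa5 are shown because these neighbours gave different results on the high-fat diet. They come from RefSeq, build GRCm38.p6, where 8 of the 10 members had such a window (not Apoc1 and Apoc3), and all 3 lie on the plus strand, at chr9:46240594-46240843, chr9:46228380-46228629 and chr9:46268358-46268607. Capitals mark matches to the motifs searched.
Apoa4: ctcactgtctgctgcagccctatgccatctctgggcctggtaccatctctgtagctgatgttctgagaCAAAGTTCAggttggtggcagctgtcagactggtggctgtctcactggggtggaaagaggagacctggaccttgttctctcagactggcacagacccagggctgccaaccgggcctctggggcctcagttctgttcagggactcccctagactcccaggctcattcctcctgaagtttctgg
Apoa1: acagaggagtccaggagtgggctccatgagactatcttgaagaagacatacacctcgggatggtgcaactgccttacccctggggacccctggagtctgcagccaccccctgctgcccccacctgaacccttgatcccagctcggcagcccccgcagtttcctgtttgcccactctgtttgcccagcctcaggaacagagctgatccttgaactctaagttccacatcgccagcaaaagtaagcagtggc
Apoa5: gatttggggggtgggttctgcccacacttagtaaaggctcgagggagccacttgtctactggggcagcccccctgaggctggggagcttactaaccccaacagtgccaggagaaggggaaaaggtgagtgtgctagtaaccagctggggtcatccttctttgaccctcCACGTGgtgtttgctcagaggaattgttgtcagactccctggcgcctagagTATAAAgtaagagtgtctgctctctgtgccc

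The motifs searched on both strands were AGGTCA (the core of nuclear receptor sites), CAAAGTNCA (an HNF4 site), TGACG (the core of cyclic AMP response elements), CACGTG (the E-box of clock and carbohydrate-response factors) and TATAAA (the TATA box). The Apoa4 window held CAAAGTTCA, at 182 to 174 bases before the start, which is a match to CAAAGTNCA. Of 32851 RefSeq windows of that length, 1.19% held this motif, and of the 12 windows of the members only that of Apoa4 did. The Apoa5 window held CACGTG at 82 to 77 bases and TATAAA at 31 to 26 bases before the start. These motifs were in 6.02% and 12.4% of all windows. No match to any of the 5 motifs was found in the Apoa1 window, which says only that these letters are not there. AGGTCA was found in a window of Apoa2 (14.0% of all windows) and TGACG in windows of Apoa2 and Mttp (17.8%), and TATAAA also in windows of Apoa2, Apob and Apoe. The motif spellings were chosen after some of these windows had been read.

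On the high-fat diet Apoa4 rose, and it was the only 1 of the 10 genes called. Apoa4 read 11.40, 11.58 and 11.41 in high-fat livers, against 10.54, 10.42 and 10.50 in chow livers. All high-fat arrays lay above all chow arrays, and also above the highest knockout array, which read 11.04. The group means were 11.46 ± 0.105 in high-fat livers and 10.49 ± 0.0642 in chow livers (SD, n = 3 each). The rise was 1.97-fold (95% interval 1.57 to 2.46, log2 difference 0.98, SE 0.150, limma adjusted p = 0.011), the 14th smallest p of the 12393 genes. In this comparison 0.29% of all genes were called, 28 higher (0.226%) and 8 lower. Of the 10 members, 2 had an unadjusted p under 0.05 (Apoa4 and Mttp), as had 8.48% of all genes. In these bulk samples, a change in the number of cells of a type and a change in RNA per cell cannot be told apart.

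The other Apoa4 probe set, which lacks the suffix (_x_at) that marks possible cross-hybridisation in the first, gave the same direction. It read 11.22, 11.37 and 11.17 in high-fat livers, against 10.31, 9.69 and 10.16 in chow livers, a 2.30-fold difference (adjusted p = 0.015 over all probe sets). The value of 9.69 belongs to chow replicate 2, where the Apoa4 probe sets lay 0.73 apart, against 0.18 to 0.34 elsewhere. With chow replicate 2 left out, the difference was 0.94 and the adjusted p 0.0533, so the call ended although the size hardly moved. The call also ended without high-fat replicate 2 (0.92, adjusted p = 0.0704). Over all 18 alternatives tried, the log2 difference ran from 0.92 to 1.20 and the adjusted p from 0.00323 to 0.084.

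**Figure D1:**
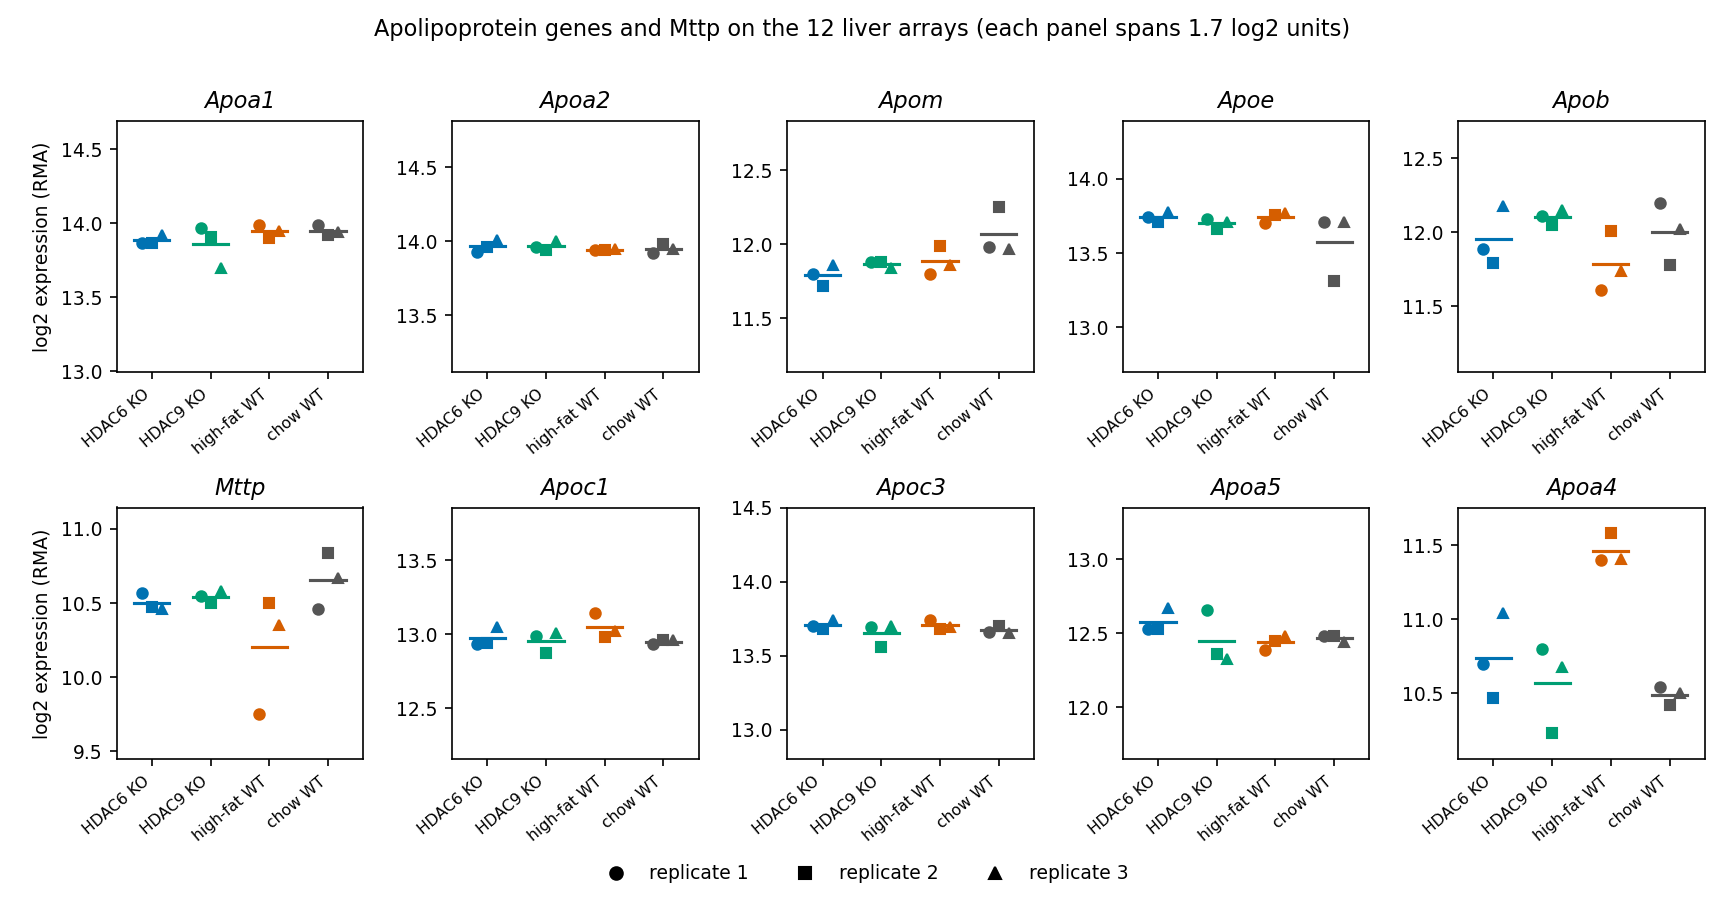
Log2 expression (vertical axis, each panel spanning the same number of log2 units) of Apoa1, Apoa2, Apom, Apoe, Apob, Mttp, Apoc1, Apoc3, Apoa5 and Apoa4 in HDAC6 knockout, HDAC9 knockout, high-fat wild-type and chow wild-type livers. Points are arrays, shaped by replicate number, and bars are group means (n = 3); the high-fat arrays of Apoa4 lie between 11.40 and 11.58, above all other arrays of that gene, and chow replicate 2 is the lowest array for Apoe (13.31) and the highest for Apom (12.25).

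Means of clock genes also differed between high-fat and chow livers. A clock score was computed per array: the average of 6 genes that peak together (Dbp, Hlf, Tef, Per3, Nr1d1, Nr1d2), less the average of 5 of the opposite phase (Npas2, Arntl, Cry1, Clock, Nfil3). It was 1.76, 1.63 and 2.79 on the high-fat arrays, against -0.68, 1.44 and -0.07 on the chow arrays, so the groups did not overlap. In high-fat livers 6 of 6 genes of the first set had higher means and 5 of 5 of the second had lower means, with 0 of the 11 called. With the score in the model, the Apoa4 difference was 1.03 (2 decimals) and its adjusted p 0.084, past the threshold no longer, while the genes called in this comparison fell to 6 of 12393. HDAC6 knockout replicate 3 and chow replicate 2 had scores of 1.60 and 1.44, close to the high-fat arrays, and read 11.04 and 10.42 for Apoa4. HDAC9 knockout replicate 2 had a score of 0.83 and read 10.23. Within groups, the highest score went with the lowest Apoa4 value in chow and HDAC9 knockout livers. It went with the highest Apoa4 value in HDAC6 knockout livers, and with neither in high-fat livers. Chow replicate 2 is the array on which probe sets of the same gene disagreed, and the other Apoa4 probe set read 9.69 there, so its values are less certain. The part of the clock in the Apoa4 difference was not tested further.

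**Figure D2:**
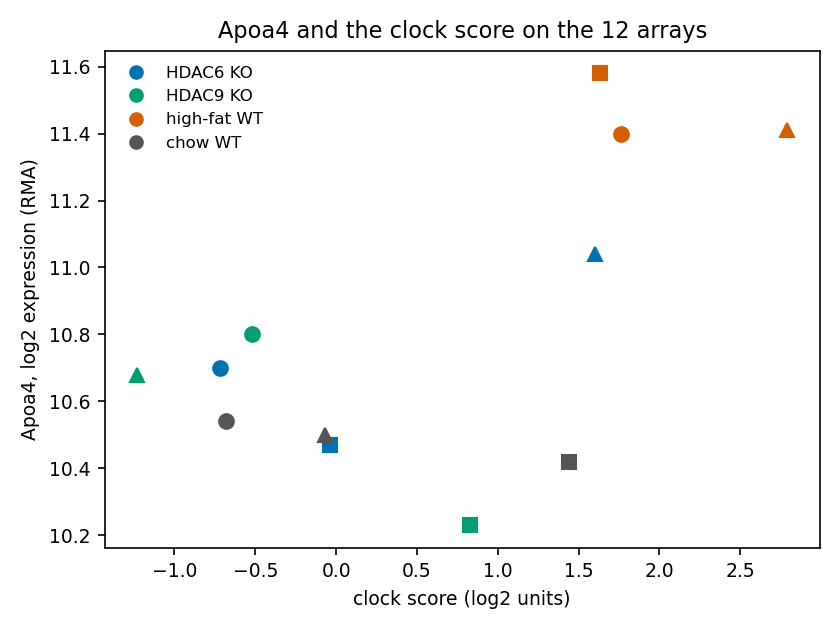
Apoa4 log2 expression (vertical axis) against the clock score in log2 units (horizontal axis), 1 point per array, coloured by group and shaped by replicate number (circle 1, square 2, triangle 3). The 3 high-fat arrays have the highest Apoa4 values, at clock scores of 1.63 to 2.79, and chow replicate 2 has a score of 1.44 with an Apoa4 value of 10.42.

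Intestinal transcripts were looked at because the intestine also makes Apoa4 and Apob. Of 5 measured enterocyte markers (of 7 listed), Fabp2, an intracellular fatty acid carrier, rose in high-fat livers: it read 11.78, 11.08 and 10.97, against 10.38, 10.24 and 10.25 in chow livers (log2 difference 0.98, SE 0.178, limma adjusted p = 0.036). That call held in 9 of 18 alternatives, and of the 6 arrays of the comparison it outlasted the removal of high-fat replicate 3 alone (adjusted p = 0.0249, against 0.0566 to 0.117 without each of the others). The other 4, Vil1, Lct, Cdx2 and Cdh17, averaged between 3.06 and 4.28 over the 12 arrays, the level of the genes silent in liver, and read at most 4.48 on any array.

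The genes whose pattern over the 12 arrays was most like that of Apoa4 were Sult5a1 (Pearson r = 0.94), Bdh1 (r = 0.927) and Stap1 (r = 0.926), out of 12392 genes compared. Bdh1, the enzyme that interconverts the ketone bodies acetoacetate and beta-hydroxybutyrate, averaged 11.63 in high-fat livers and 10.87 in chow livers (limma adjusted p = 0.0158). That call held in 11 of 18 alternatives. It ended without high-fat replicate 1 or 2 or chow replicate 1 or 2 (limma adjusted p = 0.061, 0.106, 0.0572 and 0.0767). It also ended with the mean of all probe sets (0.196), with the clock score (0.0681) and without both arrays that stood apart (0.0596). Stap1, a signalling adaptor, averaged 5.63 in high-fat livers and 4.04 in chow livers (limma adjusted p = 0.00578). Its call held in 16 of 18 alternatives and ended without high-fat replicate 1 (0.0505) and with the clock score (0.0959). Sult5a1, a sulfotransferase, averaged 8.43 in high-fat livers and 7.46 in chow livers and was not called (adjusted p = 0.101). These correlations share the group difference and are a description only.

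The neighbours of Apoa4 on chromosome 9 were not called on the high-fat diet. Apoc3, which slows the lipolysis and clearance of triglyceride-rich particles, read 13.74, 13.68 and 13.69 in high-fat livers, against 13.66, 13.70 and 13.65 in chow livers. Apoa5, which promotes that lipolysis, read 12.39, 12.45 and 12.48 in high-fat livers, against 12.48, 12.48 and 12.44 in chow livers. Apoa1, the main protein of HDL, read 13.99, 13.90 and 13.95 in high-fat livers, against 13.99, 13.92 and 13.94 in chow livers. The groups overlapped for all 3, and the 95% intervals of the log2 differences were -0.11 to 0.17 for Apoc3, -0.22 to 0.16 for Apoa5 and -0.16 to 0.16 for Apoa1.

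The difference between Apoa4 and the mean of these 3 neighbours was then taken on each array. It was -1.98, -1.76 and -1.96 on the high-fat arrays, against -2.83, -2.95 and -2.84 on the chow arrays. The groups did not overlap, and the means differed by 0.98, the same as for Apoa4 itself. The neighbours were picked with their values known, so this is a description and no test. Of the 8 further genes measured on either side of the cluster (Rnf214, Pcsk7, Tagln, Sidt2, Pafah1b2, Zpr1, Bud13 and Cadm1), 0 were called, with log2 differences from -0.27 to 0.18.

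**Figure D3:**
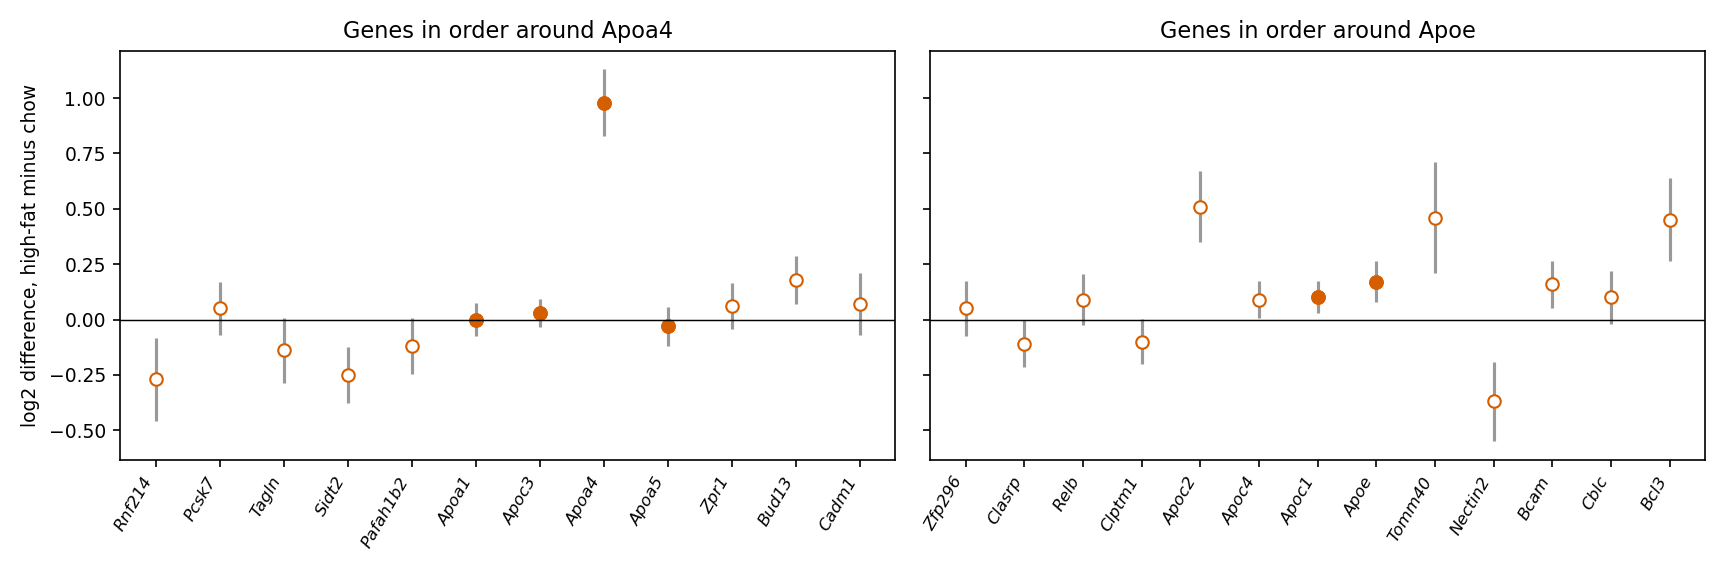
Log2 difference, high-fat minus chow (vertical axis; bars are 1 SE), for the measured genes in chromosomal order around Apoa4 (left) and Apoe (right); filled points are members of the set of 10 genes. Apoa4 lies at 0.98, and Apoa1, Apoc3 and Apoa5 beside it lie between -0.03 and 0.03.

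The most abundant genes lay near the top of the scale. The highest value of the whole table was 14.248, and 4 of the 10 genes (Apoa1, Apoa2, Apoc3 and Apoe) averaged over 13. The 51 genes that averaged over 13 had a median range of 0.28 over the 12 arrays, against 0.53 for all genes. Whether bright probe sets read differences too small was not tested.

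Apoa1 and Apoa2, the most abundant proteins of HDL, were not called in any comparison. Apoa2, the second protein of HDL, read between 13.92 and 14.01 on all 12 arrays, with group means of 13.97 in HDAC6 knockout, 13.96 in HDAC9 knockout, 13.94 in high-fat and 13.95 in chow livers. Apoa1 read 13.87, 13.87 and 13.92 in HDAC6 knockout livers, with a log2 difference from chow of -0.06 (95% interval -0.22 to 0.10). All 3 lay below the chow arrays, the highest by less than the printed decimals. In HDAC9 knockout livers Apoa1 read 13.97, 13.91 and 13.70, which overlapped the chow arrays. Its 4 probe sets gave differences from chow of -0.12 to -0.06 in HDAC6 knockout livers and of -0.11 to -0.06 in HDAC9 knockout livers, with none past the threshold.

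Apom, which carries sphingosine 1-phosphate on HDL, was not called in any comparison. It read 11.80, 11.72 and 11.86 in HDAC6 knockout livers and 11.88, 11.88 and 11.84 in HDAC9 knockout livers, against 11.98, 12.25 and 11.97 in chow livers. Both knockouts lay below all chow arrays. The log2 difference from chow was -0.27 in HDAC6 knockout livers (SE 0.090, limma adjusted p = 0.727) and -0.19 in HDAC9 knockout livers (adjusted p = 0.818). In high-fat livers Apom read 11.80, 11.99 and 11.86, which overlapped the chow arrays (log2 difference -0.18, adjusted p = 0.611).

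The reading of 12.25 for Apom came from chow replicate 2, and the other Apom probe set read lowest on that array. That probe set read 11.41, 11.35 and 11.46 in HDAC6 knockout livers and 11.56, 11.53 and 11.51 in HDAC9 knockout livers, against 11.64, 11.33 and 11.64 in chow livers. Its log2 difference from chow was -0.13 in HDAC6 knockout, 0 in HDAC9 knockout and -0.03 in high-fat livers. These differences include the 11.33 of chow replicate 2 in the chow mean. All knockout and high-fat arrays of this probe set lay below the 11.64 of chow replicates 1 and 3. The Apom probe sets lay 0.92 apart on chow replicate 2, against 0.31 to 0.42 elsewhere. With that array left out, the difference of the first probe set was -0.18 in HDAC6 knockout, -0.10 in HDAC9 knockout and -0.09 in high-fat livers. Genes near background (Scg5, Psg18 and Cyp2d34, group means from 2.67 to 3.48) were most like Apom over the 12 arrays (r from 0.883 to 0.92).

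**Figure D4:**
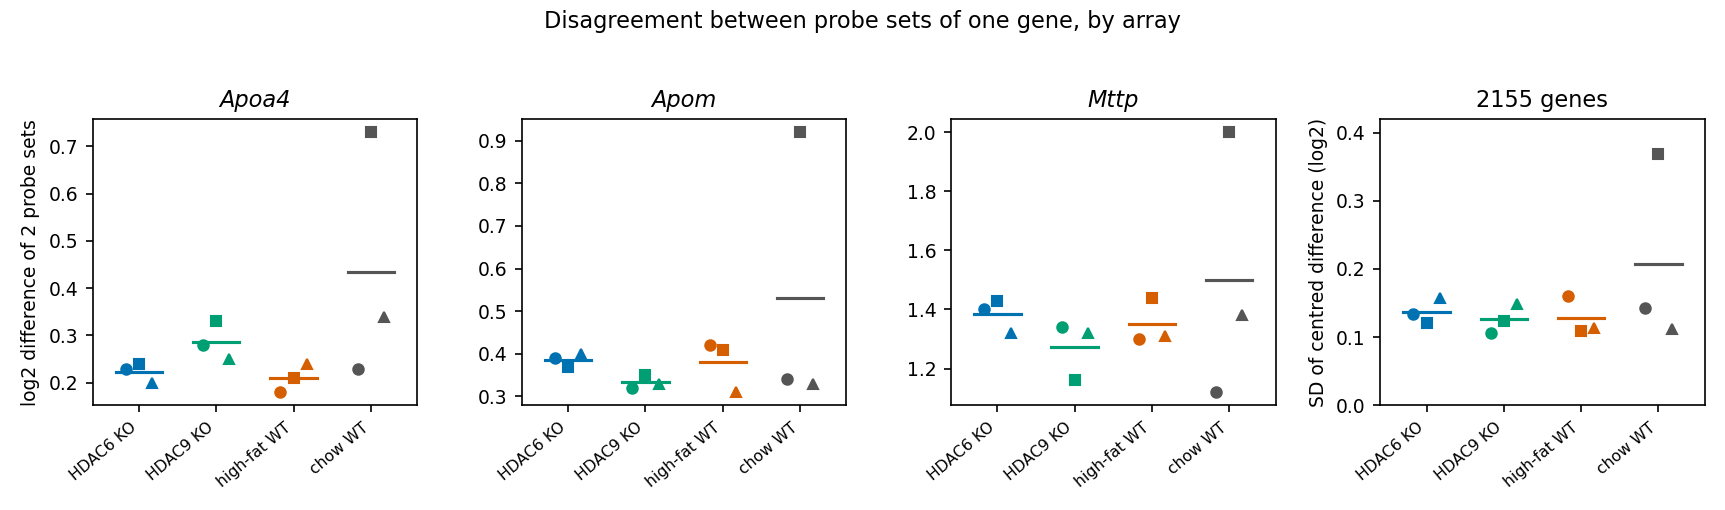
Log2 difference between the probe set used and the other probe set of Apoa4, Apom and Mttp on each array (first 3 panels), and the SD of the centred difference between the 2 brightest probe sets over 2155 genes (last panel), for HDAC6 knockout, HDAC9 knockout, high-fat and chow livers, with bars at group means. Chow replicate 2 is the highest array in each panel, at 0.73, 0.92, 2.00 and 0.368.

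Apoe, the ligand by which the liver's receptors clear lipoprotein remnants, read lowest on the same chow array. It read 13.74, 13.71 and 13.78 in HDAC6 knockout, 13.73, 13.66 and 13.71 in HDAC9 knockout and 13.70, 13.76 and 13.77 in high-fat livers, against 13.71, 13.31 and 13.71 in chow livers. The log2 difference from chow was 0.17 in HDAC6 knockout livers (SE 0.0921, adjusted p = 0.874), 0.12 in HDAC9 knockout livers (adjusted p = 0.875) and 0.17 in high-fat livers (adjusted p = 0.662). Without chow replicate 2 these differences were 0.04, -0.01 and 0.04, so their size rested on that array.

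Macrophages also make Apoe, and most of their markers had lower means in chow livers than in the other groups. Of 9 measured Kupffer cell and macrophage markers (of 10 listed), 8 had higher means in HDAC6 knockout livers, 9 in HDAC9 knockout livers and 9 in high-fat livers than in chow livers, and 0 were called. The mean of the list was 9.37 to 9.57 on the HDAC6 knockout arrays, 9.30 to 9.59 on the HDAC9 knockout arrays and 9.41 to 9.74 on the high-fat arrays, against 8.97 to 9.38 on the chow arrays. The ranges of both knockouts overlapped that of chow, and all these counts rest on the same chow arrays. The part of macrophages in the Apoe values was not tested.

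Apoc1, an inhibitor of lipoprotein uptake and lipase action that lies beside Apoe on chromosome 7, was not called in any comparison. It read 13.14, 12.98 and 13.02 in high-fat livers, against 12.93, 12.96 and 12.96 in chow livers, so those arrays did not overlap (log2 difference 0.098, SE 0.0724, adjusted p = 0.756). With Apoa4 it was 1 of 2 members whose high-fat arrays lay clear of the chow arrays, both higher, as did 14.7% of all genes in either direction and 7.02% on the higher side. In the knockouts Apoc1 differed from chow by 0.02 (HDAC6) and 0.01 (HDAC9). Apoc2, the activator of lipoprotein lipase in the same cluster and not 1 of the 10, read 11.62, 11.23 and 11.09 in high-fat livers, against 10.87, 10.54 and 11.01 in chow livers. It did not overlap either and was not called (log2 difference 0.51, SE 0.159, adjusted p = 0.319).

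Apob, the structural protein of very-low-density lipoprotein, was measured by 1 probe set and was not called. It read 11.89, 11.79 and 12.18 in HDAC6 knockout, 12.11, 12.05 and 12.15 in HDAC9 knockout and 11.61, 12.01 and 11.74 in high-fat livers, against 12.20, 11.78 and 12.02 in chow livers. All groups overlapped the chow arrays, and the log2 differences from chow were -0.04, 0.10 and -0.21 in that order, each with an SE of 0.128. The lowest chow array was again replicate 2, without which these differences were -0.15, -0.01 and -0.32. Over single arrays left out, the high-fat difference ran from -0.32 (without high-fat replicate 2) to -0.11 (without chow replicate 1).

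Mttp, the transfer protein that lipidates apolipoprotein B, had an unadjusted p under 0.05 in high-fat livers and was not called. It read 9.75, 10.50 and 10.35 in high-fat livers, against 10.46, 10.84 and 10.67 in chow livers (log2 difference -0.45, 95% interval -0.78 to -0.12, adjusted p = 0.371). High-fat replicate 2 lay within the chow range, and high-fat replicate 1 lay lowest of the 12 arrays. Without high-fat replicate 1 the difference was -0.23, and without chow replicate 2 it was -0.36. The other Mttp probe set read 8.45, 9.06 and 9.04 in high-fat livers, against 9.34, 8.84 and 9.29 in chow livers (log2 difference -0.30, adjusted p = 0.65), and so put chow replicate 2 lowest of the chow arrays where the first put it highest. In the knockouts Mttp read between 10.46 and 10.58 on all 6 arrays (log2 difference from chow -0.16 in HDAC6 knockout and -0.11 in HDAC9 knockout livers). Without chow replicate 2 these differences were -0.07 and -0.02. With all chow arrays, the other Mttp probe set gave -0.04 in HDAC6 knockout livers and, with the opposite sign, 0.11 in HDAC9 knockout livers. It read 9.17, 9.04 and 9.14 in HDAC6 knockout and 9.21, 9.34 and 9.26 in HDAC9 knockout livers. On chow replicate 2 it read 8.84, against 9.34 and 9.29 on the other chow arrays, so the opposite sign rested on that array.

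In HDAC6 knockout livers, 0 of the 10 genes were called (limma), and 1, Apom, had an unadjusted p under 0.05. Of all genes, 0.0161% were called in that comparison and 5.77% had an unadjusted p under 0.05. The arrays did not overlap the chow arrays for 4 of the 10, against 10.1% of all genes (4.83% higher, 5.31% lower). Apoa5 and Apoe were higher and Apoa1 and Apom lower, with Apoe and Apoa1 clear of chow by less than the printed decimals. Apoa5 read 12.53, 12.53 and 12.67 in HDAC6 knockout livers (log2 difference from chow 0.11, SE 0.0887). Apoa4 read 10.70, 10.47 and 11.04 in HDAC6 knockout livers, which overlapped the chow arrays (log2 difference 0.25, 95% interval -0.07 to 0.57). That difference was 0.10 without HDAC6 knockout replicate 3, 0.38 without replicate 2 and 0.21 without chow replicate 2. With the other probe set it was 0.46 (limma adjusted p = 0.797 over all probe sets). The chow mean of that probe set includes the 9.69 of chow replicate 2, against 10.31 and 10.16 on the other chow arrays. The median difference of the 10 genes was 0.020, beside -0.014 for all genes.

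In HDAC9 knockout livers, 0 of the 10 genes were called (limma, 0.0968% of all genes were). Again 1, Apom, had an unadjusted p under 0.05, as had 6.08% of all genes. That p lay at the cutoff: it was the largest of the 754 that passed, and the 95% interval of the log2 difference was -0.39 to 0. Apom was also the 1 gene of the 10 whose arrays did not overlap those of chow. Of all genes, 12.6% did not overlap, 7.21% on the lower side. Apoa4 read 10.80, 10.23 and 10.68 in HDAC9 knockout livers, with the lowest value on replicate 2, the array with the most pancreas transcripts. Its log2 difference from chow was 0.08 (95% interval -0.24 to 0.40), and 0.25 without that array. Apoc3 read 13.69, 13.56 and 13.70 and was lowest on the same array. The median difference of the 10 genes was -0.005, beside -0.014 for all genes. Both knockouts were set against the same chow arrays.

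**Figure D5:**
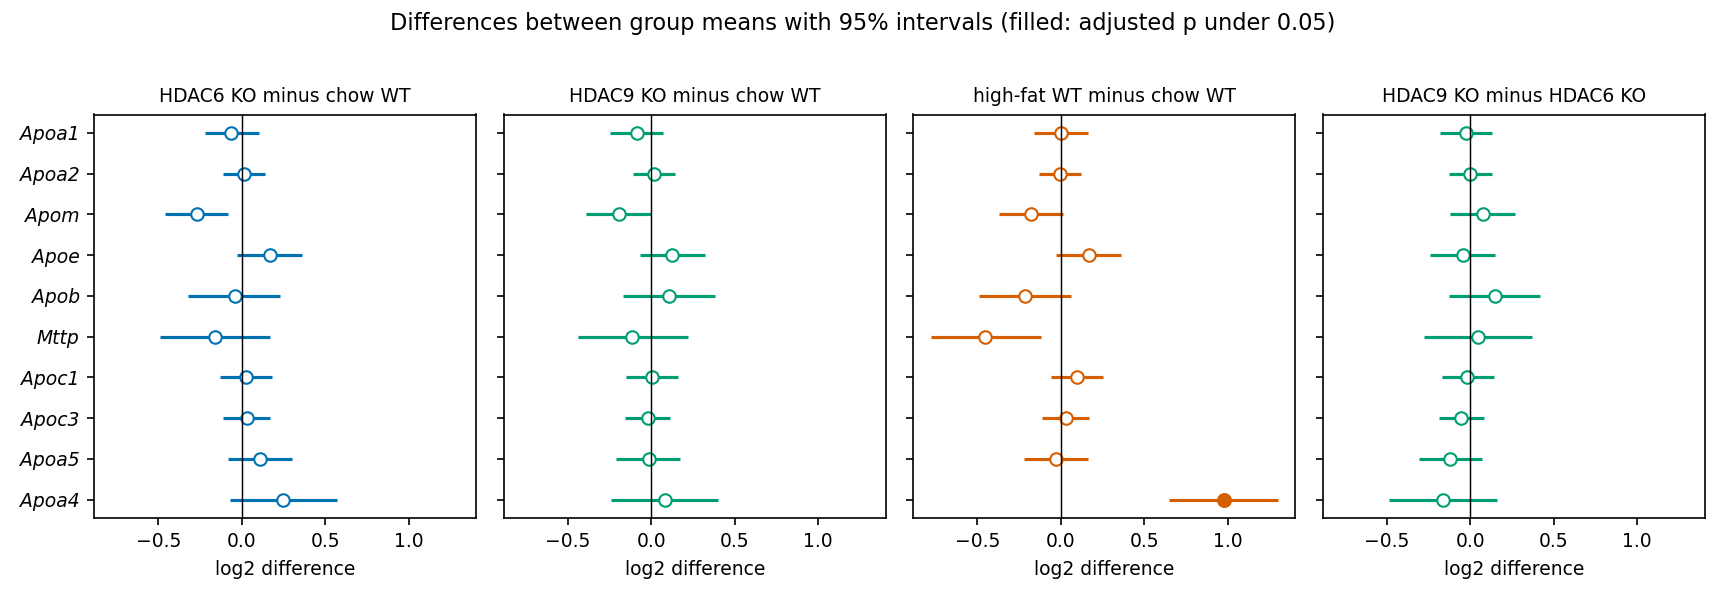
Log2 differences between group means for the 10 genes, HDAC6 knockout minus chow, HDAC9 knockout minus chow, high-fat minus chow and HDAC9 minus HDAC6 knockout (horizontal axis in log2 units, lines are 95% intervals from limma, n = 3 each). Apoa4 in high-fat livers, at 0.98, is the one filled point, which marks an adjusted p under 0.05, and the next largest difference is that of Mttp in high-fat livers (-0.45).

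Between the knockouts, HDAC9 against HDAC6, 0 of the 10 genes were called (limma, 0 with an unadjusted p under 0.05). Of all genes, 0.00807% were called and 3.8% had an unadjusted p under 0.05, and no gene of the 10 had arrays that did not overlap (8.46% of all genes). The log2 differences ran from -0.16 (Apoa4) to 0.15 (Apob). In the test for any difference among the 4 groups, 1 of the 10 genes was called, Apoa4 (F = 17.6, limma adjusted p = 0.0243), against 0.331% of all genes. Apom (F = 3.23) and Mttp (F = 3.17) followed, both with an adjusted p of 0.681. At an unadjusted p under 0.05 Apoa4 was again the 1 member, and 7.48% of all genes passed.

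Other genes of lipoprotein metabolism were taken from lists of further apolipoproteins, apolipoprotein B particle assembly, HDL assembly and remodelling, uptake, lipolysis, and regulators of apolipoprotein genes. On the high-fat diet 1 gene of these lists fell and none rose. Ces1d, a carboxylesterase that releases stored triglyceride for secretion, read 10.89, 11.35 and 11.31 in high-fat livers, against 11.85, 12.00 and 11.72 in chow livers. It fell 1.59-fold (SE 0.122 on the log2 scale, limma adjusted p = 0.0367). The call held in 7 of 18 alternatives. Without any 1 of the 3 high-fat arrays or chow replicate 1 or 2 it ended (adjusted p from 0.0541 to 0.138), and it kept its direction in all 18. Of the 8 measured genes of lipolysis and its inhibitors, 7 had lower means in high-fat livers (median log2 difference -0.186, beside -0.010 for all genes). The 7 include the lipase inhibitors Angptl4 (-0.35, SE 0.447) and Angptl8 (-0.19, SE 0.351), each difference smaller than its SE. The 1 with a higher mean was Lpl, lipoprotein lipase (0.46, SE 0.208, limma adjusted p = 0.571). Higher means were found for 10 of 12 further apolipoproteins, 9 of 16 particle assembly genes and 2 of 8 HDL genes. Uptake genes had higher means in 5 of 10 and regulators in 12 of 20.

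None of the 20 measured regulators was called in high-fat livers. Foxa2, a forkhead factor of hepatocytes, read 8.83, 8.96 and 8.89 in high-fat livers, against 9.48, 9.28 and 9.88 in chow livers (log2 difference -0.65, adjusted p = 0.0807). Nr1d1, the clock repressor REV-ERB alpha, which represses Apoc3, differed by 0.89 (adjusted p = 0.243). None was called among the 12 measured further apolipoproteins, the 16 genes of apolipoprotein B particle assembly, the 8 of HDL or the 10 of uptake. In these 4 lists the 2 smallest p-values belonged to Apoc2 and the acute-phase gene Saa1 (log2 differences 0.51 and 0.91), to the chaperone Canx and the lipid droplet protein gene Cideb (-0.22 and 0.20), to the paraoxonase genes Pon2 and Pon3 (-0.44 and -0.23), and to Cd36 and Mylip, a ligase that marks the low-density lipoprotein receptor for breakdown (-0.46 and 0.29).

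In HDAC9 knockout livers 1 gene of these lists rose. Lpl, lipoprotein lipase, which strips triglyceride from circulating particles, read 9.41, 10.33 and 9.71 in HDAC9 knockout livers, against 8.30, 8.57 and 8.89 in chow livers (2.35-fold, limma adjusted p = 0.0463). Its highest value lay on replicate 2, where the adipocyte marker Adipoq read 4.96, against at most 3.05 elsewhere. The other 3 measured adipocyte markers (of 6 listed) were not raised there alone: Lep read 2.67, Cidec 3.10 and Retn 5.50, with highest values elsewhere of 2.86, 3.23 and 5.50. The part of adipose RNA in the Lpl values was not tested. With replicate 2 left out, the log2 difference was 0.98 and the adjusted p 0.104. The call held in 6 of 18 alternatives, and it also ended without HDAC9 knockout replicate 3 (adjusted p = 0.141), chow replicate 1 (0.193) or chow replicate 2 (0.151). Cd36, a receptor for fatty acids and modified lipoproteins, read 9.27, 9.46 and 9.41 in HDAC9 knockout livers, against 7.91, 8.78 and 8.42 in chow livers, and did not pass (log2 difference 1.01, adjusted p = 0.056). Saa1, an acute-phase apolipoprotein of HDL, read 9.76, 10.96 and 9.35 in HDAC9 knockout livers, against 8.39, 8.78 and 8.23 in chow livers, and did not pass (log2 difference 1.56, adjusted p = 0.438). Its relative Saa2 differed by 1.36 (adjusted p = 0.659). The next smallest p-values in the other lists belonged to Tm6sf2 and Sort1 of particle assembly (0.34 and -0.30), Pon2 and Pon1 (-0.21 and -0.13), the receptor gene Vldlr (0.49), Ces1g (-0.24), and the nuclear receptor genes Hnf4a and Nr1h4 (-0.20 and -0.27).

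In HDAC6 knockout livers 0 genes of the 6 lists were called (limma). Cd36 had the smallest p, with a log2 difference of 0.69 (adjusted p = 0.559), followed by Nr1d1. Nr1d1 read 6.48, 6.96 and 7.45 in HDAC6 knockout livers, against 5.95, 6.53 and 6.00 in chow livers (log2 difference 0.80, adjusted p = 0.722). Angptl8, a secreted inhibitor of lipoprotein lipase, read 8.66, 8.66 and 8.45 in HDAC6 knockout livers, against 9.81, 9.92 and 9.28 in chow livers (log2 difference -1.08, adjusted p = 0.727). Saa2 and Saa1 differed by 0.98 and 0.89, with SEs of 0.464 and 0.428, and Saa1 read 8.56, 8.95 and 10.56 in HDAC6 knockout livers, so that the highest value came from replicate 3. The others of smallest p in their lists were Pdia3 and Tango2 (-0.32 and -0.23), Pon2 and the phospholipid transfer protein gene Pltp (-0.35 and 0.49), the remnant receptor gene Lrp1 (0.21), Ces1d (-0.28) and Hnf4a (-0.20).

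Between the knockouts 0 genes of the lists were called (limma), and Lpl had the smallest p, with means of 9.82 in HDAC9 knockout and 8.80 in HDAC6 knockout livers (adjusted p = 0.578). Pdia3, a disulfide isomerase of the endoplasmic reticulum, read 11.10, 11.02 and 11.08 in HDAC9 knockout livers, against 10.63, 10.55 and 10.72 in HDAC6 knockout livers (log2 difference 0.43, adjusted p = 1). The others of smallest p in their lists were Sort1 (-0.21), Pltp and Pon1 (-0.54 and -0.12), Angptl8 (0.78), Cd36 and Mylip (0.32 and -0.22), Saa1 and Apoc2 (0.67 and 0.23), and Nr1d1 and Esrra (-0.80 and 0.36).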

How the data were processed

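RNA from whole livers (100 ng per sample) was amplified, labelled with biotin and hybridised to 12 arrays, per the labels' protocols. The deposited values are log2 expression per probe set after RMA (robust multi-array average), per the submitters' processing notes; the software and chip definition behind them are not given in the sources used here. They were used as they stood, and 0 sample columns were left unused. A platform annotation gave 20380 of 22626 probe sets 1 symbol, 691 several and 1555 no symbol; the brightest probe set of each of 12393 genes entered the tests.

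One linear model with 4 group means was fitted in R 4.3.3 with limma 3.58.1 (eBayes with a mean-variance trend, Benjamini-Hochberg over all genes, two-sided, adjusted p under 0.05), and checked on simulated data. Every adjusted p is from limma. The members, lists and tests were chosen with earlier results of these data known. Named are all members, Hdac6 and Hdac9, per pathway list and comparison the called genes, filled up to 2 by smallest p, and the 3 genes most like the 2 members of largest F; other list genes and the chromosomal neighbours were chosen after their values were seen. Same-numbered replicates deviated together at r from -0.152 to 0.148, and at 0.072 to 0.129 for HDAC6 knockout against chow. Pairs of unlike numbers were not set beside them, so whether the numbers pair the arrays was not settled. The model treated the arrays as unpaired, and a fit with the replicate block is among the alternatives below. Figures used Python 3.11.15 and matplotlib 3.10.9.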

Additional observations from a re-analysis of the deposited data

How the results depend on the processing

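The alternatives were quantile normalization, a fit restricted to 2 groups, a prior that was robust or had no trend, median centring, a filter at the 25th percentile, other rules for probe sets, the replicate block, the clock score as a covariate, an adjusted p under 0.01, each array left out, and, added after seeing the data, HDAC9 knockout replicate 2 and chow replicate 2 left out together. The cause of the changes was not tested.

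The Apoa4 rise on the high-fat diet kept its direction in all 18 alternatives and passed the threshold in 15. It did not pass with the clock score (1.03, adjusted p = 0.084) or without high-fat replicate 2 or chow replicate 2. The members called against chow on the high-fat diet, and in the test over the 4 groups, were thus 0 in place of 1 with the clock score and at an adjusted p under 0.01 (limma; 4 and 2 members at an unadjusted p under 0.05 on the high-fat diet, 2 and 1 over the groups), and 0 to 1 over single arrays left out. In the 3 comparisons of the knockouts the count was 0 throughout (limma, 0 to 2 members at an unadjusted p under 0.05). The replicate block changed the call of no member.

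Of all genes, the test over 4 groups called 41, and 64 with the replicate block, 21 with the clock score, 16 at 0.01 and 15 to 70 without single arrays. High-fat against chow called 36, and 22 with the mean of probe sets, 6 with the clock score, 12 at 0.01 and 13 to 33 without single arrays. HDAC9 knockout against chow called 12, and 3 without trend, 6 with a robust prior, 5 after quantile normalization or the filter, 7 with the mean of probe sets, 1 with every probe set on its own, 0 to 13 without single arrays, and 0 with only 2 groups, at 0.01 or without both arrays (limma, 831, 754 and 497 genes at an unadjusted p under 0.05). HDAC6 knockout against chow called 2, and 1 with only 2 groups, after quantile normalization or median centring, with every probe set, with the clock score, at 0.01 or without both arrays, and 1 to 4 without single arrays. HDAC9 against HDAC6 knockout called 1, and 2 with only 2 groups, the mean of probe sets or the replicate block, and 1 to 4 without single arrays.

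Members near 0 changed sign without ever passing the threshold. High-fat against chow, Apoa1 had 0.016 after quantile normalization and 0.013 with the mean of probe sets. After median centring Apoa2 had -0.008 in HDAC6 knockout against chow and 0.009 in HDAC9 against HDAC6 knockout livers, and Apoc1 had -0.006 in HDAC9 knockout against chow. With the clock score Apoa2 had 0.005 in HDAC9 against HDAC6 knockout livers. Without both arrays, HDAC9 against HDAC6 knockout gave Apoa2 0.010, Apoa4 0.005 and Apoc1 0.025, HDAC9 knockout against chow gave Apoa5 0.036 and Apoc3 0.034, and high-fat against chow gave Apoa2 0.008. Over single arrays left out, HDAC9 against HDAC6 knockout ran from -0.079 to 0.056 for Apoa1, -0.019 to 0.018 for Apoa2, -0.299 to 0.005 for Apoa4 and -0.043 to 0.025 for Apoc1. HDAC9 knockout against chow ran from -0.003 to 0.027 for Apoa2, -0.030 to 0.254 for Apoa4, -0.121 to 0.043 for Apoa5, -0.006 to 0.202 for Apob, -0.019 to 0.049 for Apoc1, -0.047 to 0.020 for Apoc3 and -0.007 to 0.189 for Apoe. HDAC6 knockout against chow ran from -0.005 to 0.032 for Apoa2, -0.157 to 0.055 for Apob and -0.012 to 0.044 for Apoc1. High-fat against chow ran from -0.022 to 0.023 for Apoa1 and -0.021 to 0.008 for Apoa2.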
